A study of Brassica napus with 12 samples.

Results

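Leaves of the oilseed rape cultivar Avatar were compared between full submergence and air. The samples were taken by their labelled cultivar: 6 of the 12 libraries of the series are Avatar, 3 from submerged and 3 from air-grown seedlings, and the other 6 are from the cultivar Zhongshuang 9. Submerged plants stood in tap water for 24 h from day 15 after germination, beginning 2 h after lights came on, and air plants stood for the same 24 h in boxes with no water. Both groups grew in soil with 8 h of light a day at about 23 °C and gave the first true leaf of seedlings labelled 16 days old. No transgene, mutation or other agent is labelled for either group. Replicates are numbered 1, 3 and 4 in each group. The labels do not say whether a library holds 1 plant or several, so p-values measure the spread between these libraries, which may be partly technical.

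Under water, gas exchange slows strongly, and light reaching the leaf also falls. Plants are known to meet the shortage of oxygen and carbon by shifting from respiration to fermentation, by drawing on stored sugar and amino acids, and by cutting costly synthesis, while the gas hormone ethylene builds up in the tissue. Brassica napus carries an A and a C subgenome, so that many of its genes exist as closely related copies whose reads are hard to tell apart. The deposited identifiers name a chromosome and a gene number but no function. Of 101040 identifiers, 3347 matched a RefSeq gene table, and only 2 of these carried a gene symbol. The response is therefore described over the transcriptome, by abundance and by chromosome, with a small number of single genes, and lists of genes by function or of leaf marker genes could not be formed. No sequence is shown, because none could be tied to the identifiers.

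The submerged libraries held 35487108, 31575377 and 35170404 estimated counts in replicates 1, 3 and 4, and the air libraries 31350254, 28598807 and 33134485. More targets were detected at a level of 1 TPM in submerged leaves. At least 1 TPM (a length-corrected share of all transcripts) was reached by 42324, 41500 and 40615 targets in the submerged libraries, against 37561, 37727 and 38327 in the air libraries. The groups do not overlap, and the exact two-sided permutation test gave p = 0.1, the smallest that 3 against 3 libraries allow. There were 2535 targets at or above 1 TPM in every submerged library and below it in every air library, against 977 with the opposite pattern, and 30841 were at or above 1 TPM in all 6. These numbers hold for the TPM scale, and the scaling matters for the balance of changes, as described below. Targets with any count numbered 64610, 64650 and 64263 in submergence replicates 1, 3 and 4, against 63139, 61980 and 63222 in the air replicates. The 20 highest targets took 7.50%, 8.15% and 8.76% of the counts in the submerged libraries, against 11.1%, 10.04% and 10.1% in the air libraries (p = 0.1 by the same exact test). On the TPM scale the same share was 10.8% ± 0.804 in submerged leaves and 11.5% ± 0.468 in air (SD, n = 3 each; exact permutation test, two-sided, p = 0.3), and the groups overlapped. Of the 100 targets with the highest mean TPM in each group, 73 were shared between submerged and air leaves, and of the 20 highest, 12 were shared.

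**Figure D1:**
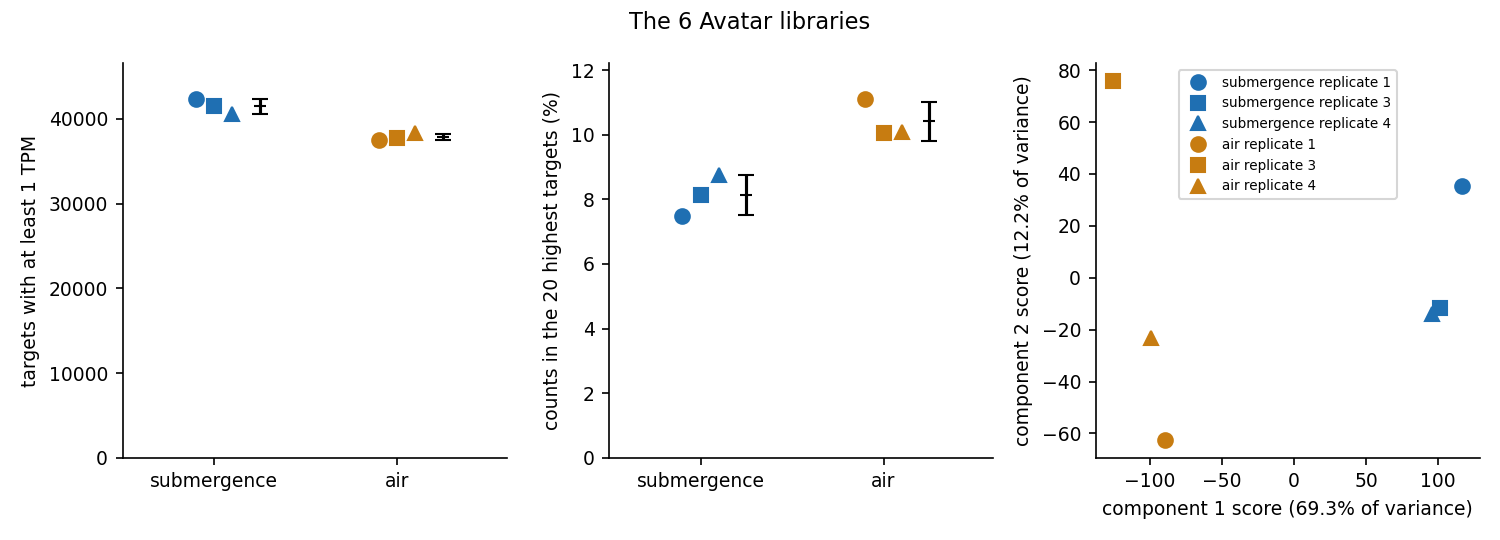
Values of the 6 Avatar libraries: targets with at least 1 TPM (left), percent of counts in the 20 highest targets (middle) and scores on principal components 1 and 2 of log2 CPM (right). Symbols are libraries, and black bars give the mean and SD of 3 libraries; submerged libraries lie at 40615 to 42324 targets and air libraries at 37561 to 38327.

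Treatment was the main axis of difference between the libraries. Component 1 of a principal component analysis of log2 CPM (counts scaled to library size with TMM, a correction for composition) held 69.3% of the variance, and the submerged libraries scored 116.8, 101.5 and 95.6 on it, against -89.1, -125.4 and -99.4 for air. Component 2 held 12.2% and set air replicate 3 (75.7) and submergence replicate 1 (35.5) apart from air replicate 1 (-62.5). Rank correlations across targets were 0.937 to 0.966 among submerged libraries, 0.913 to 0.952 among air libraries and 0.765 to 0.846 between the groups. Library properties moved with treatment too. The median difference between target length and deposited effective length, which reflects fragment length, was 239.7, 238.3 and 274.7 bases in submerged libraries and 230.1, 231.9 and 227.8 bases in air libraries. TMM factors were 1.233, 1.135 and 1.102 in submerged libraries and 0.83, 0.897 and 0.871 in air. Neither measure overlapped between the groups, and the part of either in the results was not tested. Bulk RNA cannot tell fewer cells of a type from less RNA per cell.

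Submergence altered the level of a large part of the transcripts of the Avatar leaf. Of the 51907 targets with enough counts in these 6 libraries to be tested, 10479 rose and 10730 fell (edgeR quasi-likelihood test, Benjamini-Hochberg adjusted p under 0.05). The share past the threshold was 40.9% of those tested, 20.2% higher and 20.7% lower. Most shifts were moderate: the median log2 fold change was 1.25 among targets that rose and -1.26 among those that fell, and 13642 targets, 26.3% of those tested, passed the threshold and changed at least 2-fold. Without air replicates 3 and 4 and submergence replicate 1, which have shifted chromosome segments (described last), 12830 targets were called, with the single air library left assumed to vary like the others. Larger changes were more often increases. A change of at least 8-fold was reached by 1326 targets that rose and 1089 that fell, and one of at least 32-fold by 446 and 320. With a mean of at least 5 CPM required in the group with the higher level, the counts at 32-fold were 184 and 155.

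The libraries of the groups did not overlap for nearly all called targets, which was so for 10469 of the 10479 that rose and for 10702 of the 10730 that fell. Over all targets tested, called or not, the 3 submerged libraries lay above the 3 air libraries for 28.7% and below them for 27.7%. Complete switches were rare. Counts in every submerged library and none in any air library were found for 117 targets, at a median of 1.09 CPM under submergence, with 9 of them at 5 CPM or more. The opposite pattern held for 50 targets, at a median of 1.29 CPM in air, with 8 of them at 5 CPM or more. The switched-on targets numbered 52 on A and 65 on C chromosomes, and 15 lay on C02, C03 or C08. For the opposite pattern these numbers were 24, 25 and 5. Of all 51907 targets tested, 24672 lay on A and 27100 on C chromosomes, and 8627 on C02, C03 or C08.

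The balance between risers and fallers depended on the scaling. The share of calls that were increases was 49.4% with TMM factors and 49.2% with RLE factors, but 73.9% with library totals alone and 71.2% with limma on log2(TPM + 1). Library totals moved the median log2 fold change of all targets to 0.45, against 0.03 with TMM. The scaling decides whether a small shift counts as a rise or a fall, and these libraries hold no external standard for total RNA per leaf.

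Abundant transcripts fell far more often than they rose, and moderately expressed ones leaned the other way. Among the 440 targets with a mean of at least 300 TPM over the 6 libraries, 11.6% rose and 55.9% fell, with a median log2 fold change of -0.74. From 100 to 300 TPM, 13.1% of 845 targets rose and 48.9% fell. From 30 to 100 TPM, 17.7% of 3314 targets rose and 38.5% fell. The balance turned between 3 and 30 TPM: from 10 to 30 TPM 23.8% of 7422 targets rose and 28.1% fell, and from 3 to 10 TPM 23.6% of 14914 rose and 19.2% fell. From 1 to 3 TPM 20.3% of 13510 targets rose and 15.3% fell. Below 1 TPM the shares were 14.8% and 15.5% of 11462 targets, with fewer calls in all. Of the 100 most abundant targets, 11 rose, 53 fell and 36 did not pass the threshold.

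From 3 TPM upwards, the share that fell increased with abundance under library totals as well, while the median shifted upwards. With library totals alone, the share that rose was 17.5% and the share that fell 43.4% at 300 TPM or more, against 40.1% and 10.2% from 3 to 10 TPM, and the median log2 fold change was -0.33 and 0.51 in these classes. From 10 to 100 TPM the balance reversed with library totals: 38.8% were higher and 16.0% lower from 10 to 30 TPM (median 0.37), and 30.0% higher and 23.5% lower from 30 to 100 TPM (median 0.08). Without the 3 libraries that have shifted chromosome segments, which leaves a single air library, 10.5% rose and 57.7% fell at 300 TPM or more. With C02, C03 and C08 left out these shares were 11.7% and 56.0%.

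**Figure D2:**
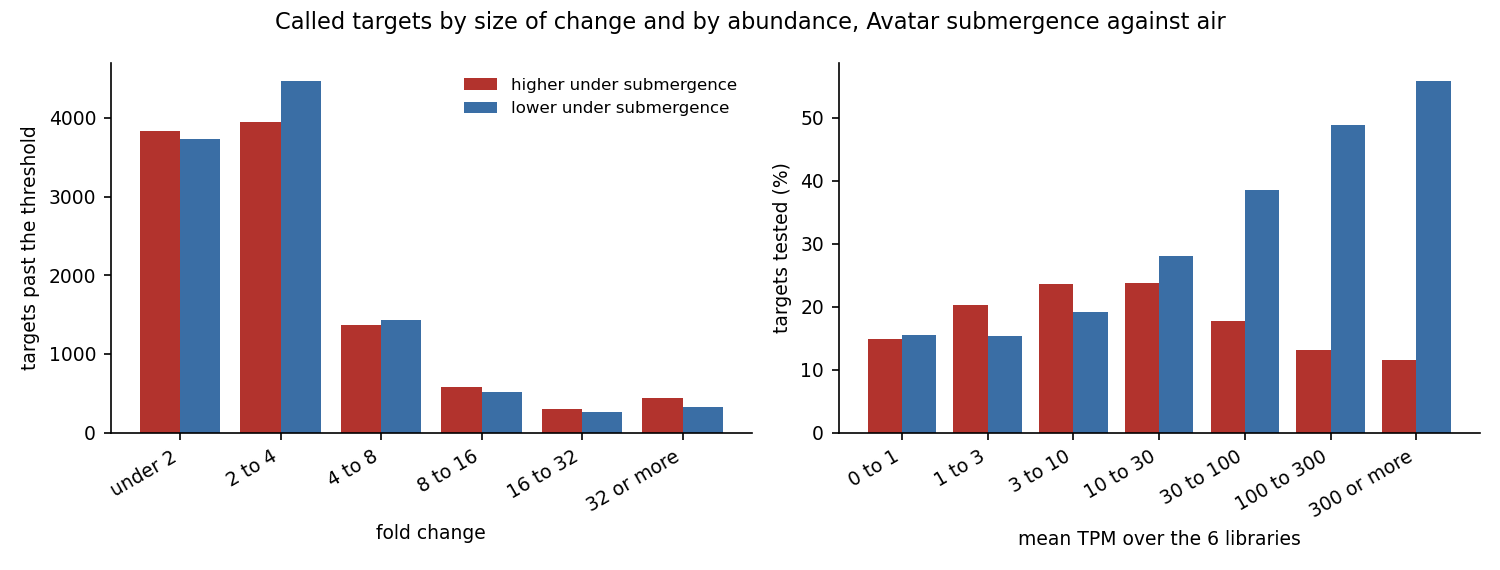
Targets past the threshold by size of the fold change (left, numbers of targets) and by mean TPM over the 6 libraries (right, percent of the targets tested in each class), red for higher and blue for lower under submergence. At 300 TPM or more 11.6% were higher and 55.9% lower, and from 3 to 10 TPM 23.6% were higher and 19.2% lower.

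The same pattern appears when the TPM of each class is summed, a description in which the calls set the direction. Targets that rose held 24.2%, 22% and 21.3% of all TPM in the submerged libraries, against 6.56%, 6.42% and 6.72% in the air libraries. Those that fell held 28.9%, 31.4% and 31.4% under submergence, against 53.5%, 55.7% and 54.5% in air. Targets that were not called gained as well, with 46.2%, 46.0% and 46.8% under submergence, against 39.4%, 37.4% and 38.3% in air. The calls rest on TMM-scaled counts and the sums on TPM, which are different scales. The 100 largest losses gave 40.6% of the loss, and the 100 largest gains 38.6% of the gain.

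Of the single genes, those with the largest fold changes were on in one group and nearly silent in the other. They were the 2 largest risers and the 2 largest fallers among called targets with at least 5 CPM in the higher group and no overlap between libraries. BnaC09g10140D stood at 7.93, 28.3 and 50.1 CPM in submergence replicates 1, 3 and 4, with no count in any air library. Measured against a floor of 3 counts per library, its mean was at least 257-fold higher under submergence (edgeR adjusted p = 0.00513). Its submerged libraries differed more than 6-fold among themselves, so the bound for the lowest of them is smaller. BnaC05g39430D was at 29.2, 9.50 and 3.64 CPM in submergence replicates 1, 3 and 4. In air it had an estimated 0.5 counts in replicate 1, rounded to 0, and none in the others. Its mean was at least 126-fold higher under submergence against the same floor (edgeR adjusted p = 0.00944), again with a smaller bound for its lowest library. These risers ranked the submerged libraries in opposite orders.

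Among the fallers, BnaA07g33410D had no count in any submerged library, against 69.9, 67.5 and 87.5 CPM in air replicates 1, 3 and 4. Its mean was at least 977-fold lower under submergence against a floor of 3 counts per library (edgeR adjusted p = 0.000218). BnaC06g37960D had 0, 1 and 1 counts in the submerged libraries, against 95.7, 54.0 and 88.8 CPM in air. The ratio of air to submerged levels was 4709, with a 95% counting interval of 1303 to 38892 (edgeR adjusted p = 0.00019). Both fallers varied less than 2-fold among the air libraries.

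The genes that carry a symbol in RefSeq changed little by comparison. KCP1 (BnaA02g32290D) was at 33.8, 35.8 and 35.7 CPM in submerged leaves, against 22.6, 21.6 and 19.6 CPM in air, a log2 fold change of 0.72 ± 0.10 (SE, edgeR adjusted p = 0.00293). TR1 (BnaCnng15100D) was at 8.66, 7.85 and 7.19 CPM in submerged leaves, against 5.43, 3.75 and 4.20 CPM in air, a log2 fold change of 0.83 ± 0.18 (SE, edgeR adjusted p = 0.014). The groups do not overlap for either gene. TR1 (BnaCnng15100D) lost its call without air replicate 4 (log2 fold change 0.78, edgeR adjusted p = 0.0546) and without air replicates 3 and 4 and submergence replicate 1 (0.47, edgeR adjusted p = 0.181).

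The targets known to RefSeq with the largest gains and losses of TPM all had short coding sequences, of 144 to 510 bases. BnaC03g71690D, of 303 bases, was the largest gain: it stood at 5854, 6091 and 6658 TPM in submerged leaves, against 1964, 2129 and 2103 TPM in air. In CPM it was at 920, 1018 and 1045 under submergence and 455.6, 462.5 and 473.7 in air, a log2 fold change of 1.1 ± 0.12 (SE, edgeR adjusted p = 0.00124). Its increase was 3.00-fold in TPM and 2.14-fold in CPM. These scales differ in the TMM factors as well as in the use of the effective length. With library totals alone, which use neither, its log2 fold change was 1.51, and with limma on log2(TPM + 1) it was 1.58. It lies in a stretch of C03 where the median target was shifted by -0.90 (air replicate 3) and -0.69 (air replicate 4) on the log2 scale, but its own 3 air values in CPM differ by less than 5%.

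BnaA03g38940D, of 222 bases, was at 1562, 1316 and 1147 TPM in submerged leaves, against 10.7, 23.1 and 33.4 TPM in air. Its log2 fold change in counts was 5.50 ± 0.42 (SE, edgeR adjusted p = 0.000422). BnaC08g12910D, of 261 bases, was at 1689, 1188 and 1240 TPM in submerged leaves, against 71.7, 48.9 and 82.3 TPM in air, a log2 fold change of 3.86 ± 0.26 in counts (SE, edgeR adjusted p = 0.000345). The groups were far apart for both genes compared with the spread inside either group.

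Of the losses, BnaA08g26490D, of 510 bases, was at 52.9, 81.6 and 116.4 TPM in submerged leaves, against 1022, 1059 and 969 TPM in air, a log2 fold change of -4.01 ± 0.34 in counts (SE, edgeR adjusted p = 0.000559). BnaA09g40450D, of 372 bases, was at 711, 892 and 917 TPM in submerged leaves, against 1285, 1243 and 1216 TPM in air. Its log2 fold change in counts was -1.05 ± 0.15 (SE, edgeR adjusted p = 0.00318). The decrease was 2.06-fold in CPM but 1.49-fold in TPM, and with library totals alone the log2 fold change was -0.63. BnaC04g41400D, of 144 bases, was at 1.61, 1.79 and 4.58 TPM in submerged leaves, against 24.1, 1482 and 830 TPM in air replicates 1, 3 and 4. Air replicate 1 was far below the other air libraries for this target, yet above all submerged ones. Its log2 fold change of -8.10 ± 1.64 (SE, edgeR adjusted p = 0.00969) lost its call with limma-voom (adjusted p = 0.272) and when air replicates 3 and 4 and submergence replicate 1 were left out (log2 fold change -2.82, edgeR adjusted p = 0.0803).

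**Figure D3:**
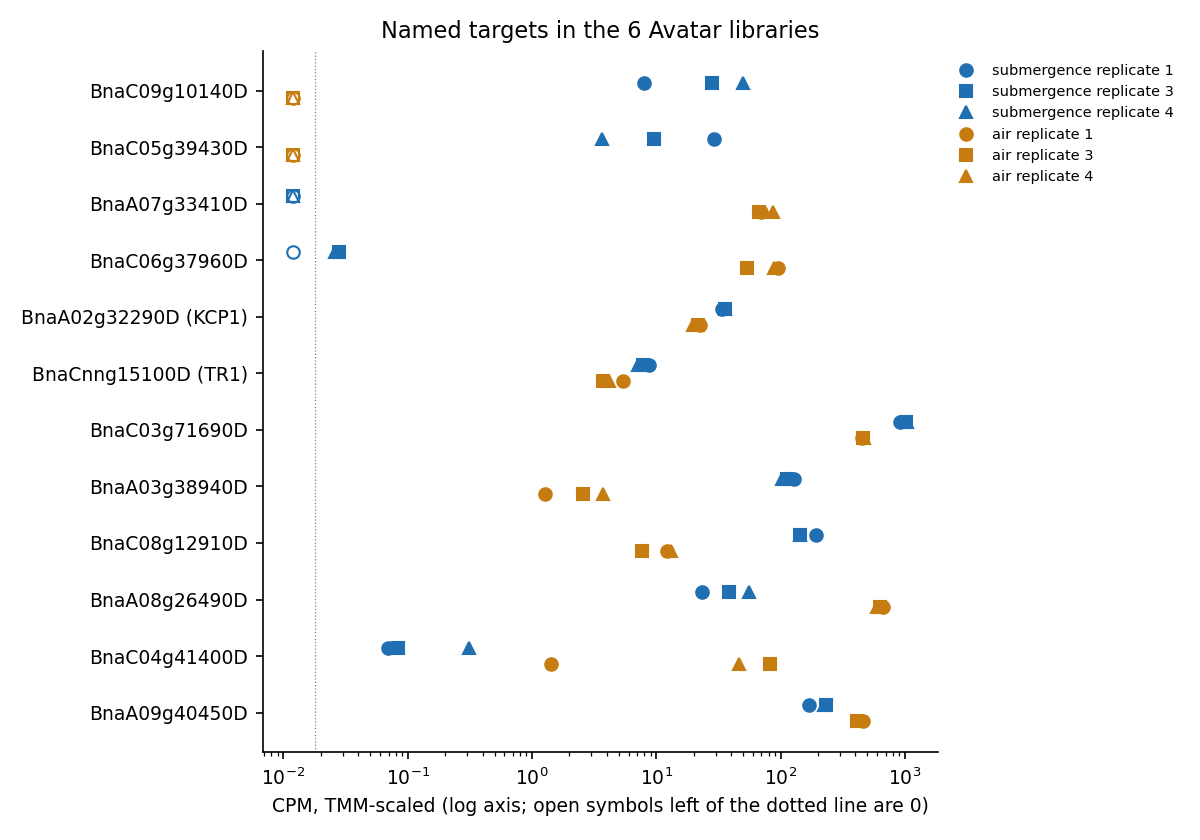
CPM of the 12 named targets in each Avatar library on a log axis, blue for submergence and orange for air, with open symbols for values of 0. The groups do not overlap for any of the 12, which was a condition in choosing those with the largest fold changes. BnaC04g41400D spreads from 1.42 to 82.0 CPM within air.

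The named targets moved the same way in the other cultivar. In Zhongshuang 9 all 12 had a log2 fold change of the same sign as in Avatar, each past the threshold (edgeR adjusted p at most 0.00912). Most of the 12 were chosen as called in Avatar. The share of all Avatar calls that were also called in Zhongshuang 9 is not given here. The direct test of the difference between the cultivars' responses called none of the 12, and the smallest edgeR adjusted p was 0.238, for BnaC04g41400D. This test called 1.32% of all targets tested, 1.65% of Avatar risers and 2.74% of Avatar fallers. With shares this low, the lack of a call among 12 targets does not show that the responses are alike.

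By chromosome, called targets lay on every chromosome, with the lowest shares on C02, C03 and C08. On most chromosomes between 38.4% and 46.4% of the tested targets were called, A01 having the highest share. C02, C03 and C08 were at 33.9%, 33.6% and 33.1%, and A07 was at 37.5%. The median log2 fold change, less that of all targets, was 0.13 on C02, 0.26 on C03 and -0.16 on C08. Stretches of A02 were raised in air replicate 3 and, in part, in submergence replicate 1 and air replicate 4, and stretches of A03 in air replicates 3 and 4. Parts of A07 were lowered in submergence replicate 1, to -0.81 on the log2 scale at the lowest, and other parts were raised, to 0.4 at the highest. A03 stood at -0.25, with 16.6% of targets higher and 27.1% lower under submergence, and A02 at -0.02, with 19.6% higher and 20.8% lower.

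Single libraries were lowered along whole stretches of these C chromosomes. Blocks of 40 neighbouring targets with a mean of at least 1 TPM were compared between the shifted libraries and the others of their group, with air replicate 1 as the base for air and the mean of submergence replicates 3 and 4 as the base for submergence. On C02 the first 9 blocks were shifted by a median of -0.85 on the log2 scale in submergence replicate 1 and -3.64 in air replicate 3, and 2 of them also in air replicate 4 (-2.64 and -2.07). On C03, 18 blocks had a median shift of -3.20 in air replicate 3 and -0.80 in air replicate 4. On C08, 34 blocks had a median shift of -0.80 in submergence replicate 1 and of -0.04 and -0.01 in the air libraries. On C04, taken as an unshifted chromosome, the median block shifted by 0.00 in submergence replicate 1, -0.02 in air replicate 3 and 0.00 in air replicate 4.

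Calls were scarce inside these lowered C stretches. Blocks lowered by 2 or more on the log2 scale in a library held 17 calls among 360 targets on C02 (4.72%) and 60 among 720 on C03 (8.33%), against 40.9% over all targets tested. Blocks with smaller shifts had 29.7% of 360 targets called on C03 and 31.5% of 1360 on C08. The other blocks of the same chromosomes had 46.3% (C02), 45.6% (C03) and 43.0% (C08). On C03 the median block had a log2 fold change of 0.93 among the 18 blocks lowered by 2 or more in a library, 0.57 among the 9 with smaller shifts and 0.08 among the 51 others. The raised stretches of A03 differed from the lowered C stretches. Its blocks 3 to 19 were raised by 0.71 to 1.09 in air replicate 3 and by 0.36 to 0.63 in air replicate 4. Each held 14 to 23 calls among 40 targets, with block median log2 fold changes of -0.24 to -1.37. How many of these calls come from the raised air libraries was not tested. Without air replicates 3 and 4 and submergence replicate 1 the median log2 fold change, less that of all targets, was 0.07 on C02, 0.05 on C03, -0.01 on C08 and -0.06 on A03.

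**Figure D4:**
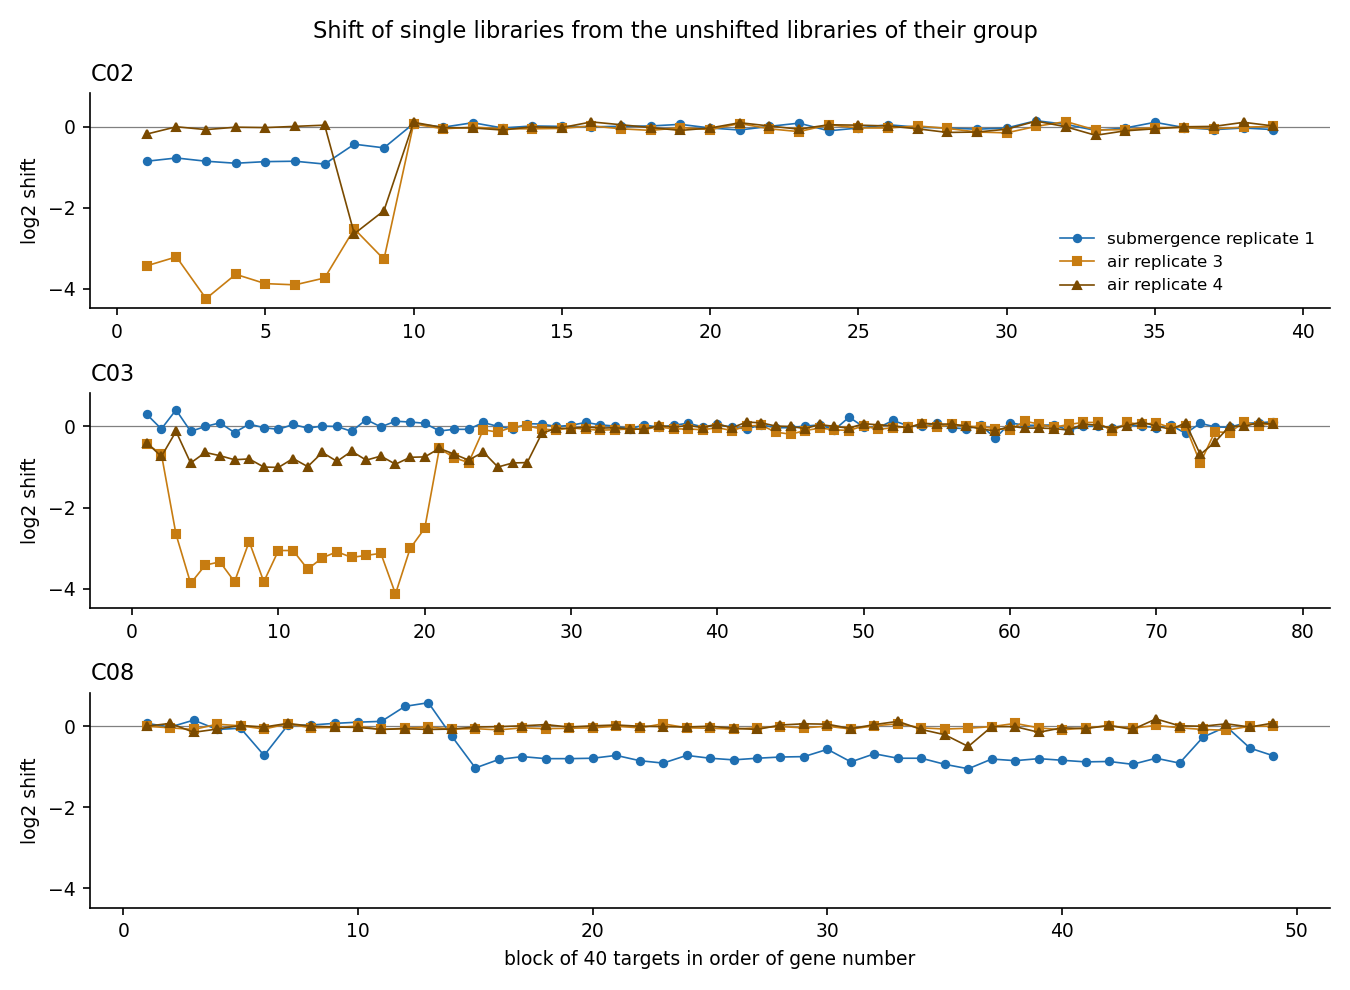
Median log2 shift of blocks of 40 neighbouring targets along C02, C03 and C08 in submergence replicate 1, air replicate 3 and air replicate 4, against the libraries of the same group without these shifts. Air replicate 3 falls to between -2.5 and -4.2 at the start of C02 and in C03, and submergence replicate 1 stays near -0.8 over most of C08.

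Leaving out the targets of these chromosomes changed the calls on the other chromosomes little. When C02, C03 and C08 were left out before scaling and fitting, 9536 of 43125 targets rose and 9500 fell, 19036 in all. Of the 18293 of these targets called in the fit with all chromosomes, 18263 were called again in the same direction. Leaving out A02, A03 and A07 as well gave 16082 calls among 35621 targets, 8043 higher and 8039 lower. All 15192 earlier calls among them were kept. The counts of the targets kept were the same in each refit. Calls could therefore change only through the scaling, the pooled estimate of spread and the p-value adjustment. These refits do not test how shifted stretches act on the targets kept, and the first still holds A03 with its raised stretches.

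The shares of the subgenomes lay close together once these chromosomes were set aside, with no test of their difference. Over all chromosomes 20.2% of A targets rose and 22.1% fell, against 20.1% and 19.4% of C targets. Without A02, A03 and A07 the A shares were 21.5% higher and 21.5% lower, and without C02, C03 and C08 the C shares were 21.4% and 20.9%. A10 had the highest share of risers, 26.2% of 1857 targets against 18.1% that fell. With any single library left out, risers still outnumbered fallers on A10, by 414 to 341 at the closest, without submergence replicate 1. Without air replicates 3 and 4 and submergence replicate 1, which leaves 1 air library, the counts were 253 higher and 243 lower. The A chromosomes held 50.1%, 49.0% and 49.0% of the counts of A and C chromosomes in submerged libraries, against 49.1%, 51.1% and 50.1% in air libraries (p = 0.3 by the exact permutation test). With A02, A03, A07, C02, C03 and C08 left out these shares were 50.9%, 50.3% and 50.8% in submerged libraries, against 50.8%, 50.1% and 50.04% in air libraries (p = 0.3 by the exact permutation test).

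**Figure D5:**
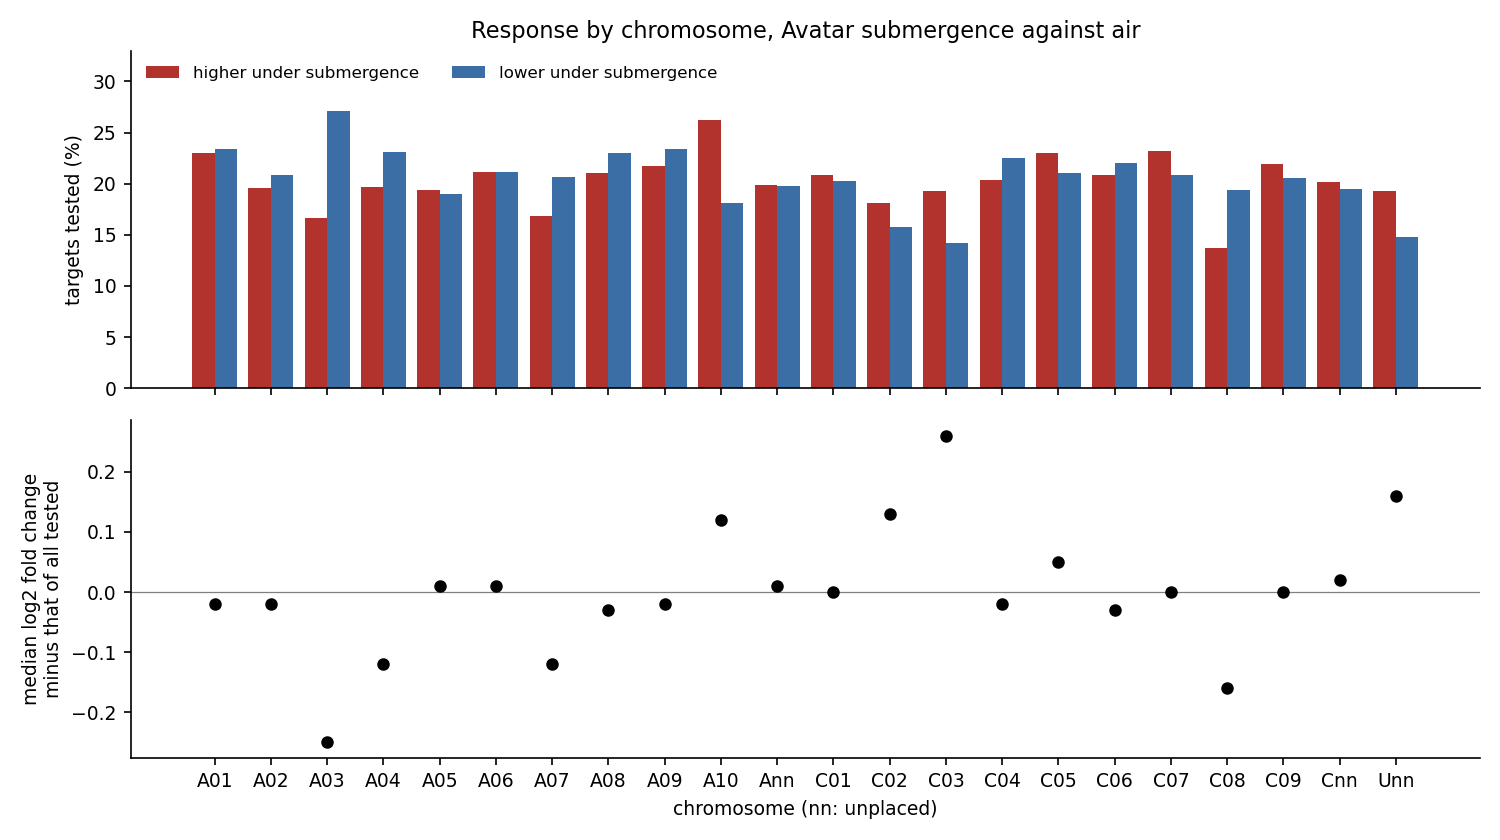
Percent of tested targets higher (red) and lower (blue) under submergence by chromosome (top), and median log2 fold change less the median of all tested targets (bottom). C03 (0.26) and A03 (-0.25) lie farthest from 0.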

How the data were processed

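The authors deposited estimated counts and TPM per coding sequence and library, in the column format of kallisto, which the submitters' processing notes name with edgeR and limma but no versions. Which genome build, annotation and strand setting lay behind them was not given in the sources used here, and none was assumed. The deposited TPM values divide by an effective length and sum to the same total in each library, so they hold no absolute amount of RNA. Reads that fit several targets were divided between them, so values of near-identical copies are uncertain individually. Target lengths are all multiples of 3 and are coding lengths.

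Estimated counts of the 6 Avatar libraries were rounded, filtered by filterByExpr and scaled by TMM in edgeR 4.0.16 (R 4.3.3). The quasi-likelihood test compared group means without a block, with Benjamini-Hochberg adjustment over all 51907 targets tested and a threshold of 0.05. Each SE is the fold change over the root of its F statistic. This fit uses the 6 libraries alone because the comparison is within Avatar; the difference between cultivars was tested as an interaction over all 12. Alternatives used limma 3.58.1 and DESeq2 1.42.0. The code was tested on simulated data. No pair of libraries within a group agreed within sampling noise (chi-square per target at least 23.3, against 1 for counting noise).

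Named targets are the 2 largest risers and fallers, the 2 with a symbol, and the 3 largest gains and losses of TPM among called targets that RefSeq (assembly Da-Ae) matched. Functional lists, promoter motifs and copy pairs planned earlier could not be evaluated, since the table gives no function or sequence. Members, lists and rules were chosen with earlier results of these data known; the thresholds of -0.5 and -2 for blocks were set after seeing the data. A count of 0 allows up to 3 counts, 0.0688 to 0.0839 CPM in submerged and 0.104 to 0.117 CPM in air libraries; floors and intervals cover counting error only.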

Additional observations from a re-analysis of the deposited data

Results flagged for a closer look

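Of 51907 targets tested in Avatar, edgeR's test of the interaction called 684 (1.32%). The response of Avatar differed from that of Zhongshuang 9, by this test, for 173 targets that rose and 294 that fell in Avatar. Of the 173, Zhongshuang 9 called 84 in the same direction and 37 in the opposite one, and 52 did not pass its threshold; the median log2 fold change was 1.49 in Avatar and 0.51 in Zhongshuang 9. Of the 294, Zhongshuang 9 called 216 in the same direction and 42 in the opposite one, and 36 did not pass; the medians were -1.56 in Avatar and -2.25 in Zhongshuang 9.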

How the results depend on the processing

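Of the alternatives run, those not named here kept the counts of called targets within 1.5 times and the direction of every named target. By abundance, library totals alone reversed the balance from 10 to 100 TPM, with 38.8% higher and 16.0% lower from 10 to 30 TPM and 30.0% higher and 23.5% lower from 30 to 100 TPM. Called targets numbered 12993 at a mean of at least 5 CPM, where only 24571 targets were tested, and 6347 of these changed at least 2-fold. They numbered 12830 without the 3 libraries with shifted segments. With single libraries left out there were 15946 to 20249 calls, 11857 to 13033 of them at least 2-fold, and 48.0% to 49.5% higher. The share of higher calls was 73.9% with library totals alone, 71.2% with limma on log2(TPM + 1) or log2(TPM + 0.1), and 53.9% with all 12 libraries in the fit. It was 51.0% at 5 CPM, 50.1% without C02, C03 and C08, 48.7% with DESeq2, 48.1% with limma-voom, and 47.1% without the 3 libraries with segments; the cause was not tested.

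The labels do not say whether equal replicate numbers mark a shared sowing. Deviations of same-numbered libraries from their group means correlated at -0.0846, -0.0737 and 0.0182 for replicates 1, 3 and 4. With A02, A03, A07, C02, C03 and C08 left out these values were -0.0039, -0.0446 and 0.0404. With 3 libraries in each group they cannot settle whether the libraries are paired. With the replicate number as a block, 15357 targets were called, 48.2% of them higher. The 20 highest targets took a share of the counts that differed by -2.28 percentage points under submergence (-2.59 to -1.93 with single libraries left out). TR1 (BnaCnng15100D) also lost its call without the 3 libraries with segments (log2 fold change 0.47, edgeR adjusted p = 0.181; over all alternatives 0.00122 to 0.181), and that of BnaC04g41400D ranged from 6.86e-08 to 0.272. At these depths the median SE was 0.26 on the log2 scale, and no absolute log2 fold change under 0.29 was called.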

Other observations

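On chromosomes other than A02, A03, A07, C02, C03 and C08, 55.6% of 5995 adjacent tested pairs with both targets called changed the same way, against 50.6% of pairs 5 targets apart and 49.8% of pairs 50 apart. Adjacent pairs whose counts were whole numbers (within 0.01) in all 6 libraries, and so shared few or no reads with other targets, gave 64.6% of 130. There were 27 runs of at least 5 adjacent risers, the longest of 8, and 25 runs of fallers, the longest of 7. These are descriptions of neighbours in the same libraries, with no test.

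Targets with whole counts in all 6 libraries, 8645 of those tested, had 18.5% that rose and 13.0% that fell, against 20.6% and 21.7% of 42683 targets with a fractional count. Their median level was 1.25 CPM, against 5.49 CPM. The other 579 targets, with counts too high to judge, had 12.3% that rose and 57.0% that fell, at a median of 419.6 CPM. These differences were not tested. By coding length, the targets of 1770 bases or more had 22% of their number higher and 18.6% lower, while those of 558 bases or less had 17.7% higher and 19.7% lower; their median TPM was 1.82 and 8.69.

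Within-group spread was similar in the treatments: outside the 6 chromosomes named above and at a mean of at least 3 TPM, the median SD of log2 CPM was 0.192 among submerged and 0.160 among air libraries (n = 3 each, 18636 targets).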
